A study of Mus musculus with 6 samples.

Results

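Integrins and the other adhesion molecules of T cells were followed in cultures of splenic naive CD4+ T cells (C57BL/6 mice) that received neutrophil extracellular traps (NETs) or vehicle. The genes were taken by name. They were the protein-coding genes for integrin alpha chains, integrin beta chains and ICAMs, together with the receptors Cd44, Selplg, Cd2, Cd226 and Cd47, the tetraspanins Cd151, Cd9, Cd81 and Cd82, and the cytoplasmic partners Tln1, Fermt3, Rap1a and Rap1b. This gave 43 genes of the 54532 in the deposited table, 18 alpha chains, 8 beta chains, 4 ICAMs, 5 other receptors, 4 tetraspanins and 4 cytoplasmic partners. Of the 43, 35 passed the filter on low counts and were tested.

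The series held bulk RNA sequencing of 3 libraries from cells given NETs and 3 from cells given vehicle. NETs are chromatin fibres studded with granule proteins that neutrophils expel. Every culture, vehicle included, also held CD3/CD28 beads, IL-2 and antibodies to IFNγ and IL-4 for its 72 h, so both groups received the activating beads. The sources used here do not give the dose or origin of the NETs or say whether replicates came from separate animals, and p-values measure only the spread between these samples, which may be technical.

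Integrins are receptors made of 1 alpha and 1 beta chain. In resting T cells they are mostly folded and bind weakly. Signals from the T cell receptor or from chemokine receptors switch the small GTPase Rap1 to its active form, and talin (Tln1) and kindlin-3 (Fermt3) then bind the beta chain tail and open the receptor. The main pairs of T cells are LFA-1 (Itgal with Itgb2), which binds ICAMs, VLA-4 (Itga4 with Itgb1), which binds VCAM-1 and fibronectin, and the gut-homing receptor alpha4beta7 (Itga4 with Itgb7), which binds MAdCAM-1.

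Library depth ranged from 15657622 to 18655997 counts, and the adhesion genes took between 0.625% and 0.686% of them. The T cell markers Cd3d, Cd3e, Cd3g, Cd4, Trac, Thy1, Lck, Cd5 and Cd28 were all present, with a summed level of 4838 to 5300 CPM (counts scaled to the library total) with vehicle and 4902 to 5252 CPM with NETs. B cell, CD8 T cell and NK cell, dendritic cell, platelet and erythroid markers each summed to 23.95 CPM or less in every library, and the stroma and epithelium list, nearly all of it Pecam1, to between 203 and 314 CPM. Single markers moved within these sums. Thy1 averaged 1007 with vehicle and 1182 CPM with NETs, the B cell marker Pax5 2.57 and 1.18 CPM, and Pecam1 256 and 210 CPM. Other markers of the same lists went the other way, Cd3e at 399 and 348 CPM, Cd79b at 4.47 and 5.91 CPM and Cdh5 at 0.721 and 1.02 CPM. By the sign fitted in edgeR, 6 of 9 T cell markers lay lower with NETs and 3 higher. For B cell markers the counts were 4 and 2, and for the 7 tested stroma and epithelium markers 6 and 1. The 10 neutrophil markers, of which Ly6g had no read and S100a9 had 0 reads with vehicle and 60 with NETs, summed to 2.47 to 3.58 with vehicle and 4.60 to 5.87 CPM with NETs. Among them S100a8 had 1 read with vehicle and 28 with NETs, and Ngp had 0 and 17. Mmp8, with 13 and 8 reads, and Ltf, with 23 and 19, went the other way. The groups overlapped for Ngp, Mpo, Lcn2, Elane, Camp, Mmp8 and Ltf. The 8 monocyte and macrophage markers, Itgam among them, all had reads and summed to 30.5 to 40.1 with vehicle and 40.8 to 54.5 CPM with NETs. Lyz2 made up most of this sum, at means of 23.5 and 36.0 CPM, and without it the sums overlapped, at 9.51 to 12.65 with vehicle and 10.02 to 16.04 CPM with NETs. Adgre1 of this list averaged 1.42 with vehicle and 2.33 CPM with NETs, without overlap. Itgam averaged 2.71 and 2.25 CPM, Csf1r 1.06 and 1.11 CPM, Cd68 4.75 and 5.09 CPM and Cd14 0.620 and 1.18 CPM, each with overlap. Without S100a9 the neutrophil sums were 2.47 to 3.58 and 3.67 to 4.57 CPM. Both of these sums were chosen after seeing the data. Their part in the results on the adhesion genes was not tested.

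No adhesion gene passed edgeR's quasi-likelihood test at an adjusted p of 0.05 (0 of 35, against 0 of 13900 genes over the whole table, 0%). The gene nearest to it was the alpha7 chain Itga7, with an adjusted p of 0.361, and it was also the 1 gene with an unadjusted p under 0.05, lying lower with NETs. That is 2.86% of the 35 genes, beside 12.8% of all genes tested. Below, a log2 difference is NETs minus vehicle as fitted by edgeR, with its standard error (SE). Of the 35, 20 lay above 0 and 15 below. Their median log2 difference was 0.05, against 0.00 over all genes tested, and their median absolute log2 difference was 0.11, against 0.16 over all genes. Their median SE was also smaller, 0.12 against 0.15. Over the protein-coding genes tested the median absolute log2 difference was 0.14 and the median SE 0.13. DESeq2 on the same counts called 0 of the 35, where it called 0.935% of all genes tested, and placed 0 of the 35 at an unadjusted p under 0.05, where 12.5% of all genes lay. DESeq2 gave no adjusted p to Itga10, Itgam, Cd151, Icam5, Itga9, Itgae, Itga3, Itga2b, Itgb4, Itga2, Itga5 and Itgb5. Genes without an adjusted p count as not called, here and in the share over all genes. Groups that did not overlap were seen for 2 of the 35, Cd2 above and Itga5 below, or 5.71%, where the share over all genes tested was 16.7%. In bulk samples, fewer cells of a type and less RNA per cell cannot be told apart.

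**Figure D1:**
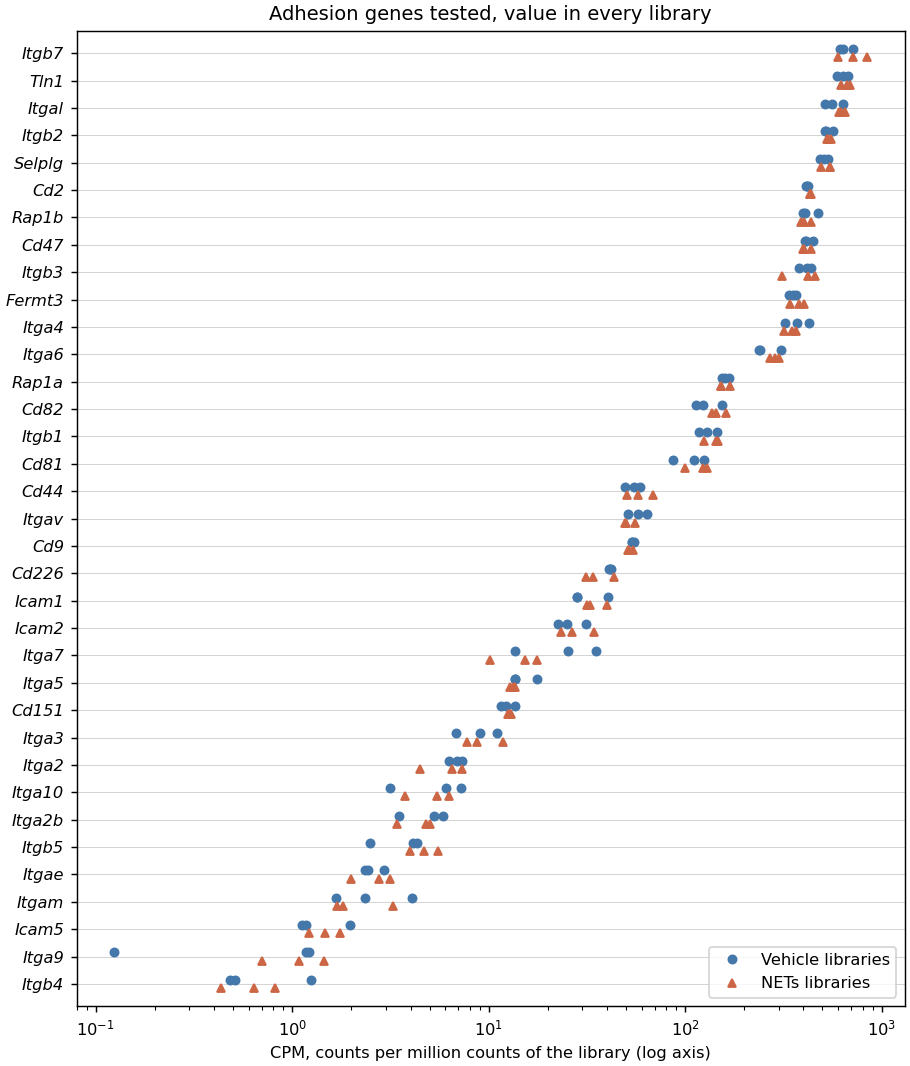
Level of the 35 tested adhesion genes in each of the 6 libraries, in CPM on a log axis, with vehicle libraries as circles and NETs libraries as triangles. Vehicle and NETs points overlap for all genes but Cd2 and Itga5, from Itgb7, at a vehicle mean of 657 CPM, down to Itgb4, at 0.746 CPM.

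The largest alpha chain by reads was Itgal, the alpha chain of LFA-1 (chromosome 7, 127296260 to 127335138, build GRCm38 here and below). Its level was 558, 512 and 635 CPM in the vehicle libraries (replicates 1 to 3 in order) and 648, 604 and 622 CPM in the NETs libraries. Vehicle replicate 3 lay among the NETs libraries, so the groups overlapped, and the log2 difference was 0.15 (SE 0.09, adjusted p in edgeR = 0.497). Its partner Itgb2, the common beta chain of leukocyte integrins (chromosome 10, 77530252 to 77565708), stood at 519, 565 and 514 with vehicle and 534, 527 and 551 CPM with NETs. All NETs values of Itgb2 lay inside the vehicle range, and the log2 difference was 0.02 (SE 0.08, adjusted p in edgeR = 0.930).

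The alpha4 chain Itga4 (chromosome 2, 79255426 to 79333123), shared by VLA-4 and alpha4beta7, stood at 372, 323 and 429 with vehicle and 349, 366 and 317 CPM with NETs. The groups overlapped, with vehicle replicate 3 the highest, and the log2 difference was −0.11 (SE 0.10, adjusted p in edgeR = 0.665). It was −0.0039 without vehicle replicate 3 and −0.20 without vehicle replicate 2. Its exons share bases with Cerkl on the opposite strand, and the sources used here do not say whether the counting used strand. The beta1 chain Itgb1 (chromosome 8, 128685654 to 128733200), which pairs with many alpha chains, was at 129, 118 and 145 with vehicle and 144, 147 and 125 CPM with NETs, a log2 difference of 0.10 (SE 0.09, adjusted p in edgeR = 0.694). The beta7 chain Itgb7 (chromosome 15, 102215995 to 102231944) stood at 615, 717 and 638 with vehicle and 718, 597 and 842 CPM with NETs. NETs libraries held both the highest and the lowest Itgb7 value of the 6, and the log2 difference was 0.14 (SE 0.12, adjusted p in edgeR = 0.627). Without NETs replicate 3 it was 0.01 and without NETs replicate 2 it was 0.27.

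Itga6, the alpha6 chain of laminin receptors (chromosome 2, 71745616 to 71858416), was at 238, 240 and 307 with vehicle and 300, 269 and 286 CPM with NETs. As with Itgal, vehicle replicate 3 was above the other vehicle libraries, here above every NETs library, and the log2 difference was 0.14 (SE 0.10, adjusted p in edgeR = 0.589). The alphav chain Itgav, which pairs with several beta chains to bind vitronectin and latent TGF-beta, stood at 57.6, 51.4 and 63.6 with vehicle and 49.7, 55.3 and 49.8 CPM with NETs (log2 difference −0.14, SE 0.10, adjusted p in edgeR = 0.581). Itgb3, the beta3 chain best known from platelets (chromosome 11, 104608000 to 104670476), stood at 379, 439 and 415 with vehicle and 422, 311 and 459 CPM with NETs. Again the highest and lowest values were both from NETs libraries, and the log2 difference was −0.04 (SE 0.13, adjusted p in edgeR = 0.934). Of the platelet markers, Gp1ba averaged 2.50 with vehicle and 2.39 CPM with NETs, Pf4 averaged 0.230 and 0.325 CPM, Ppbp averaged 0.104 and 0.0777 CPM, Gp9 had 2 and 0 reads and Gp1bb had none. Their part in the Itgb3 level was not tested. The platelet partner of beta3, Itga2b, averaged 4.88 ± 1.22 with vehicle and 4.41 ± 0.856 CPM with NETs (± SD, 3 libraries a group).

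The alphaE chain Itgae, which joins Itgb7 to bind E-cadherin and marks T cells held in epithelia, was low in both groups. It stood at 2.36, 2.43 and 2.92 with vehicle and 1.98, 2.77 and 3.15 CPM with NETs, and the 2 groups overlapped (log2 difference 0.05, SE 0.34, adjusted p in edgeR = 0.969). The gene Haspin lies within Itgae and shares no exon base with it.

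Itga7 (chromosome 10, 128933818 to 128958282), a laminin receptor chain best known from muscle, was the 1 gene below an unadjusted p of 0.05 with all libraries in the test. It stood at 25.4, 35.2 and 13.6 CPM in the vehicle libraries (replicates 1 to 3 in order) and at 10.1, 17.7 and 15.2 CPM in the NETs libraries. Vehicle replicates 1 and 2 lay above every NETs library, while vehicle replicate 3 lay below 2 of them, so the groups overlapped. The mean was 24.7 ± 10.8 with vehicle and 14.3 ± 3.84 CPM with NETs (± SD, 3 libraries a group). The fold fitted by edgeR was 0.584, a log2 difference of −0.78 (SE 0.32; unadjusted p = 0.0376 and adjusted p = 0.361 by edgeR). It passed the threshold under 2 of 16 alternatives, with no filter on low counts (log2 difference −0.77, edgeR adjusted p = 0.0175) and without vehicle replicate 3 (−1.07, edgeR adjusted p = 0.0235). With no filter 0.525% of all genes were called lower and 0.775% higher, and without vehicle replicate 3 the shares were 1.3% and 1.51%. Without vehicle replicate 2 the log2 difference was −0.43.

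Several differences were larger without vehicle replicate 3. In that comparison 6 of the 35 genes had an unadjusted p under 0.05 by edgeR, Itga7 lower and Itga6, Itgal, Cd82, Cd81 and Icam1 higher. These 5 higher genes were 14.3% of the 35, where 11% of all genes tested were higher in that comparison, and for lower genes the share over all genes was 9.48%. Of the 5, none passed the adjusted threshold: the log2 difference and edgeR adjusted p without vehicle replicate 3 were 0.27 and 0.0996 for Itga6, 0.23 and 0.134 for Itgal, 0.33 and 0.0706 for Cd82, 0.26 and 0.241 for Cd81, and 0.32 and 0.203 for Icam1. With no filter, Cd82 and Itgb8 were the higher genes with an unadjusted p under 0.05 by edgeR and Itga7 the lower one, beside 5.29% and 4.67% of all genes. Without NETs replicate 2 the genes at that level were Itgb7 and Itga7, beside 12.9% of all genes, and without NETs replicate 3 it was Cd226, beside 12.6%. Nothing in the labels sets vehicle replicate 3 apart from the other vehicle libraries. The first principal component, the axis of largest variation between libraries over all genes tested, held 38.3% of the variance. On it vehicle replicate 3 stood at 8.52 and the NETs libraries (replicates 1 to 3) at 22, 9.36 and 1.43. Vehicle replicates 1 and 2 stood at −13.4 and −27.9, so this position is not particular to the adhesion genes.

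**Figure D2:**
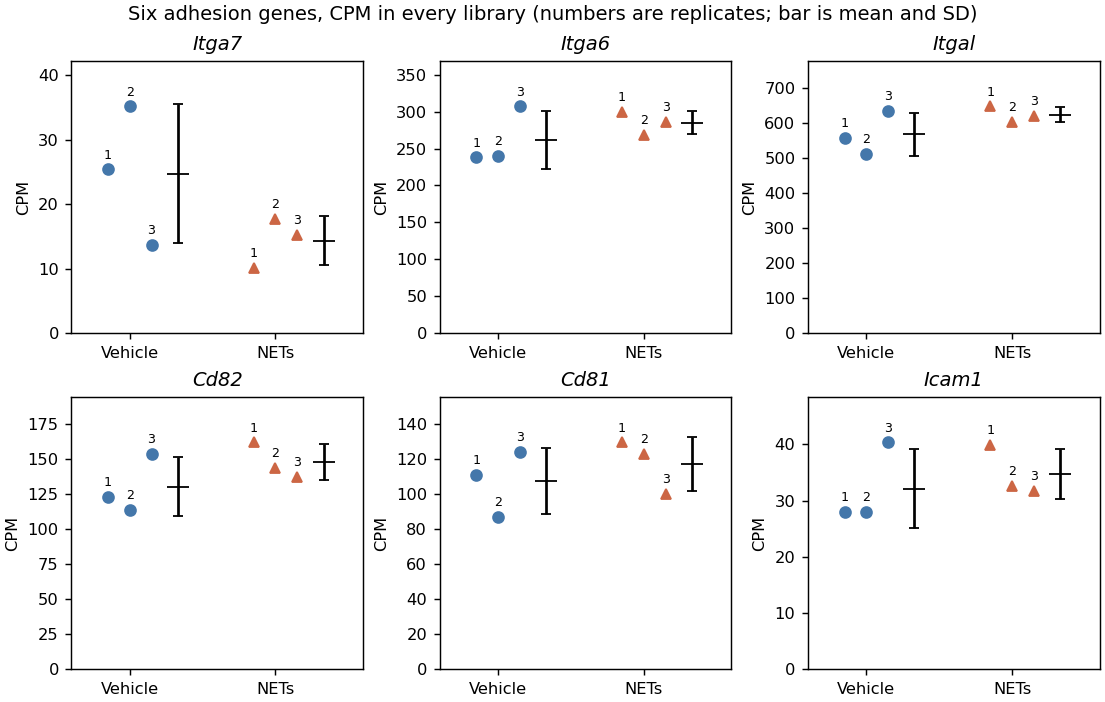
CPM of Itga7, Itga6, Itgal, Cd82, Cd81 and Icam1 in every library, with replicate numbers beside the points and the mean and SD (n = 3) as bars to the right of each group, on axes that start at 0. The 6 genes are those with an unadjusted p under 0.05 by edgeR without vehicle replicate 3, a choice that favours the pattern shown. In all 6 genes vehicle replicate 3 lies within or beyond the range of the NETs libraries, while vehicle replicates 1 and 2 lie on the other side of all or most of them.

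Among the remaining alpha chains, Itga5, the fibronectin receptor chain, stood at 17.7, 13.5 and 13.7 with vehicle and 13.2, 13.5 and 12.9 CPM with NETs. All NETs values lay below all vehicle values, but replicate 2 of each group stood at 13.5 CPM after rounding, and the log2 difference was −0.17 (SE 0.16, adjusted p in edgeR = 0.696). In the table as a whole 9.04% of genes had all NETs libraries below all vehicle libraries. Itga3, Itga2 and Itga10, chains of laminin and collagen receptors, averaged 8.96, 6.82 and 5.47 with vehicle and 9.41, 6.12 and 5.15 CPM with NETs. The myeloid chain Itgam averaged 2.71 ± 1.24 with vehicle and 2.25 ± 0.880 CPM with NETs (± SD, 3 libraries a group), and its groups overlapped. In the annotation Itgam shares exon bases with Gm49368 and Itga10 with Gm42957 on the same strand, so their reads cannot be told apart from those genes. The same holds for Itga1 and Itgad, and 17 of the 43 genes share exon bases with some gene on either strand. Itga9 was at 1.18, 1.21 and 0.124 with vehicle and 1.46, 1.09 and 0.700 CPM with NETs. Beta chains other than those above were low: Itgb5 averaged 3.65 with vehicle and 4.72 CPM with NETs (log2 difference 0.38, SE 0.29, adjusted p in edgeR = 0.595), and Itgb4, the partner of alpha6 in epithelia, averaged 0.746 and 0.631 CPM.

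The filter left out 8 of the 43 genes, Itga1, Itga8, Itga11, Itgad, Itgax, Itgb6, Itgb8 and Icam4. Icam4 had 0 reads in all 6 libraries, which allows up to 3 counts per group. All 1110 of its exon bases overlap Gm47079 on the opposite strand. Without knowledge of strand use, this limit holds for counted reads only. Itgb8, the beta chain that with alphav releases active TGF-beta, had 1, 0 and 2 reads in the vehicle libraries (replicates 1 to 3 in order) and 16, 6 and 6 reads in the NETs libraries. Every NETs library thus held more Itgb8 reads than every vehicle library, 28 against 3 in all, a ratio of 8.92 per library total with an exact 95% interval of 2.76 to 45.9 that covers counting error only. With no filter on low counts the Itgb8 log2 difference was 3.04 and the edgeR adjusted p was 0.328, so it did not pass. Its mean level with NETs was 0.536 CPM. Itgax, the alpha chain of dendritic cells, had 32, 8 and 7 reads with vehicle and 7, 8 and 1 reads with NETs. Vehicle replicate 1 alone held 32 of the 47 vehicle reads, and in the other vehicle libraries the Itgax counts were those of NETs replicates 1 and 2. Itga11 had 4, 1 and 2 reads with vehicle and 0 with NETs, and the exact 95% interval of the ratio of NETs to vehicle ran from 0 to 0.663. Itgb6 had 4 reads, all in NETs replicate 1. Itga1 had 6 reads with vehicle and 5 with NETs, Itgad had 2 and 2, and Itga8 had 1 and 0.

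The ligands of LFA-1 carried by the T cells themselves were measured next. Icam1 (chromosome 9, 21015985 to 21028817), which activation induces, stood at 28.0, 28.0 and 40.3 with vehicle and 39.9, 32.6 and 31.7 CPM with NETs. The highest Icam1 value was again vehicle replicate 3, and the log2 difference was 0.12 (SE 0.15, adjusted p in edgeR = 0.766). Icam2 averaged 26.3 ± 4.51 with vehicle and 28.0 ± 5.56 CPM with NETs, and Icam5, a neuronal ICAM, averaged 1.43 and 1.48 CPM. Exons of Icam1, Icam4 and Icam5 overlap the antisense gene Gm47079, so without knowledge of strand use their reads cannot be told apart from it.

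The other receptors bind counter-receptors on cells or matrix. Cd2, which binds CD48 in mice and steadies contacts with antigen-presenting cells, stood at 410, 424 and 416 with vehicle and 436, 433 and 430 CPM with NETs. All 3 NETs values lay above the vehicle values, but the difference was 0.07 on the log2 scale (SE 0.07, adjusted p in edgeR = 0.747), and 7.68% of all genes had their NETs libraries all above. Selplg (PSGL-1), the selectin ligand of leukocytes, averaged 509 ± 24.3 with vehicle and 528 ± 29.6 CPM with NETs. Cd47, which binds thrombospondin and signals to phagocytes, averaged 422 ± 22.4 and 413 ± 22.7 CPM. Cd44, the hyaluronan receptor, was at 58.6, 54.7 and 49.4 with vehicle and 57.5, 68.3 and 50.4 CPM with NETs, a log2 difference of 0.13 (SE 0.12, adjusted p in edgeR = 0.682). Without NETs replicate 2, the highest library, it was 0.01, and without NETs replicate 3 it was 0.22. Cd226 (DNAM-1), an activating receptor that associates with LFA-1, was at 40.8, 41.3 and 41.8 with vehicle and 31.2, 34.1 and 43.5 CPM with NETs. NETs replicates 1 and 2 lay below all vehicle libraries and NETs replicate 3 above them, and the log2 difference of −0.17 (SE 0.13, adjusted p in edgeR = 0.589) was −0.33 without NETs replicate 3.

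Tetraspanins gather integrins and other receptors into membrane domains. Cd82 had the smallest p of the group, at 123, 114 and 154 with vehicle and 162, 144 and 137 CPM with NETs (log2 difference 0.19, SE 0.11, adjusted p in edgeR = 0.475). Cd81 stood at 111, 86.9 and 124 with vehicle and 130, 123 and 100 CPM with NETs, and its groups overlapped. Cd9 ranged from 53.3 to 54.9 with vehicle and from 51.4 to 54.5 CPM with NETs, and Cd151 averaged 12.5 and 12.8 CPM.

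Of the cytoplasmic partners that activate integrins, Tln1 averaged 633 ± 38.9 with vehicle and 660 ± 37.6 CPM with NETs, and Fermt3 averaged 354 ± 15.2 and 374 ± 29.7 CPM (SD, n = 3 each). Their log2 differences were 0.07 (SE 0.08) and 0.09 (SE 0.09), with edgeR adjusted p values of 0.746 and 0.692. Rap1a stood at 160 ± 6.6 and 158 ± 9.75 CPM and Rap1b at 428 ± 41.9 and 411 ± 25.3 CPM. None of the 4 had groups that did not overlap.

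**Figure D3:**
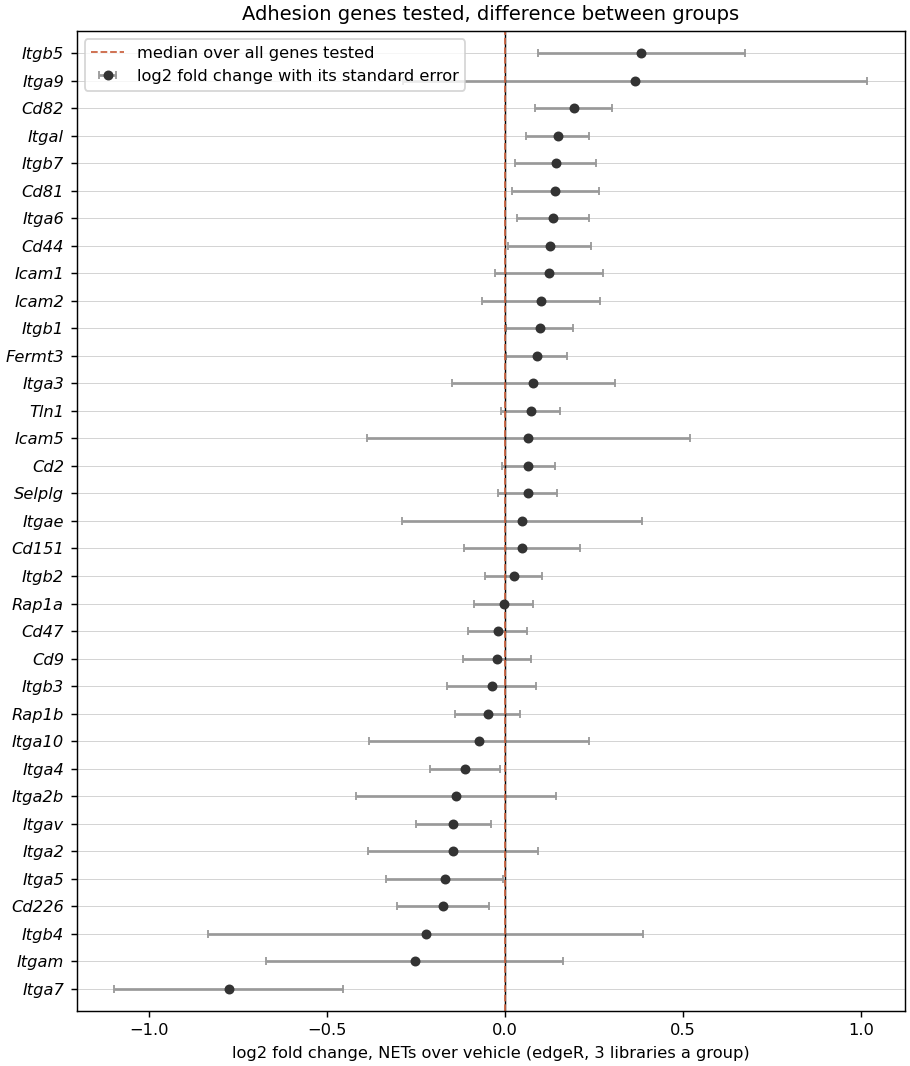
Log2 difference, NETs over vehicle, of the 35 tested adhesion genes with its standard error from edgeR (3 libraries a group); the dashed line is the median over all genes tested. Itga7 stands lowest at −0.78, and the genes with more than 100 CPM lie between −0.11 and 0.19.

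Levels were set side by side per length, since long transcripts yield more reads. In the authors' FPKM (reads scaled by length and depth), the highest vehicle means were 755 for Itgb7, 507 for Selplg, 450 for Cd2, 381 for Tln1, 296 for Itgb2, 268 for Rap1b, 249 for Cd47 and 149 for Itgal. This order depended on the length used. The deposited FPKM values divide by the mean length of the annotated transcripts of a gene, short non-coding ones included, in 40 of the 42 adhesion genes with reads (within 1 base). For Itgb7 that length was 870 bases, while its longest coding transcript has 2683. Per kilobase of the longest annotated coding transcript, the vehicle means were 362 CPM for Cd2, 274 for Selplg, 245 for Itgb7, 179 for Itgb2, 157 for Rap1b, 137 for Fermt3 and 109 for Itgal, and Tln1 stood at 75.4.

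Summed over the chains, the beta chains exceeded the alpha chains. Summed FPKM with vehicle was 1200 ± 76.4 over the beta chains and 421 ± 45.3 over the alpha chains, and with NETs it was 1276 ± 156 and 430 ± 11.4 (SD, n = 3 each). Itgb7 made up 62.9% ± 1.08 of the beta chain FPKM with vehicle and 64.5% ± 3.12 with NETs, but 46.1% and 48.0% per longest coding transcript. Itgb2 followed with 24.7% ± 0.569 and 23.6% ± 2.42 of the FPKM, then Itgb3 with 6.75% ± 0.198 and 6.10% ± 0.539 and Itgb1 with 5.42% and 5.47%. Per longest coding transcript Itgb3 stood at 71.1 CPM per kilobase with vehicle, and its partners Itgav and Itga2b at 8.16 and 1.42. Itgb1 stood at 34.2 and Itga4 at 38.3 on this scale.

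Within the alpha chains, Itgal took 35.7%, 35.2% and 35.4% of the summed FPKM in the vehicle libraries (replicates 1 to 3 in order) and 38.4%, 37.3% and 38.7% in the NETs libraries. Here vehicle replicate 3 lay with its own group, and the groups did not overlap. Itgav went the other way, with 5.84%, 5.59% and 5.62% with vehicle and 4.66%, 5.41% and 4.91% with NETs, likewise without overlap. The shares of Itga6 were 27.7% ± 1.64 and 29.7% ± 1.16, and those of Itga4 were 24.2% ± 1.03 and 21.8% ± 1.53 (SD, n = 3 each). Per longest coding transcript the Itgal share was 46.8% with vehicle and 49.6% with NETs. In FPKM, 5 of the 26 chains had shares that did not overlap between the groups, Itgal, Itgav, Itgb3 and the low Itga11 and Itgb8, and with the deposited gene length 4 did, without Itgb3. These shares were not tested, and shares of the same sum are tied to each other. For the levels of single genes, 16.7% of all genes tested did not overlap, a set that leaves out Itga11 and Itgb8.

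**Figure D4:**
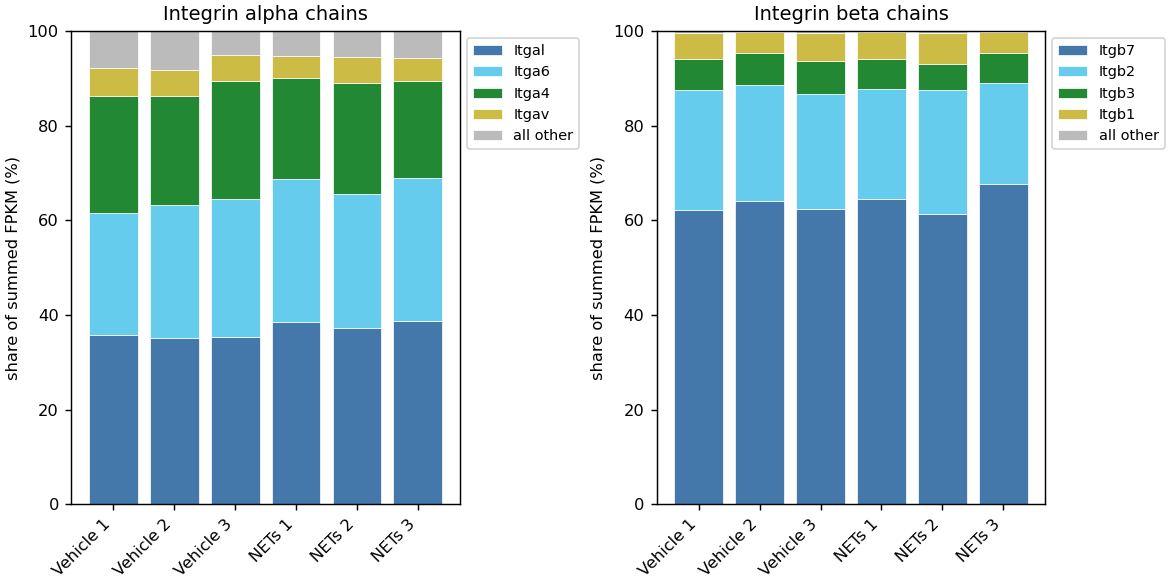
Share (%) of the summed FPKM of the 18 alpha chains (left) and of the 8 beta chains (right) in each library, stacked by chain. Itgal, Itga6 and Itga4 made up most of the alpha chains and Itgb7 and Itgb2 most of the beta chains in all 6 libraries, and the Itgal part is larger in the 3 NETs libraries.

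Ratios between chains were compared for 7 pairs with an exact two-sided permutation test, whose smallest possible p for 3 libraries a group is 0.1. The log2 FPKM ratio of Itga4 to Itgb1, the chains of VLA-4, was 0.66, 0.59 and 0.71 with vehicle and 0.42, 0.45 and 0.48 with NETs. All 3 NETs libraries lay below all 3 vehicle libraries, a difference of −0.20 with SDs of 0.06 and 0.03 (exact p = 0.1, the smallest possible, and 0.7 after Benjamini-Hochberg adjustment over the 7 pairs). Leaving out a library moved this difference only between −0.23 and −0.18, although neither Itga4 nor Itgb1 passed its own test. The ratio of Itgal to Itgb2 was −0.98, −1.22 and −0.78 with vehicle and −0.80, −0.89 and −0.91 with NETs, and overlapped (difference 0.13; exact p = 0.5). Of Itga4 to Itgb7 the difference was −0.24 (exact p = 0.5), of Itgae to Itgb7 −0.10 (0.7), of Itgb1 to Itgb7 −0.03 (0.9), of Itga6 to Itgb1 0.04 (0.8) and of Itgav to Itgb3 −0.09 (0.9), with an exact permutation p adjusted over the pairs of 0.9 for each of these and for Itgal to Itgb2. The size of a ratio, unlike its difference between groups, depends on the lengths used.

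**Figure D5:**
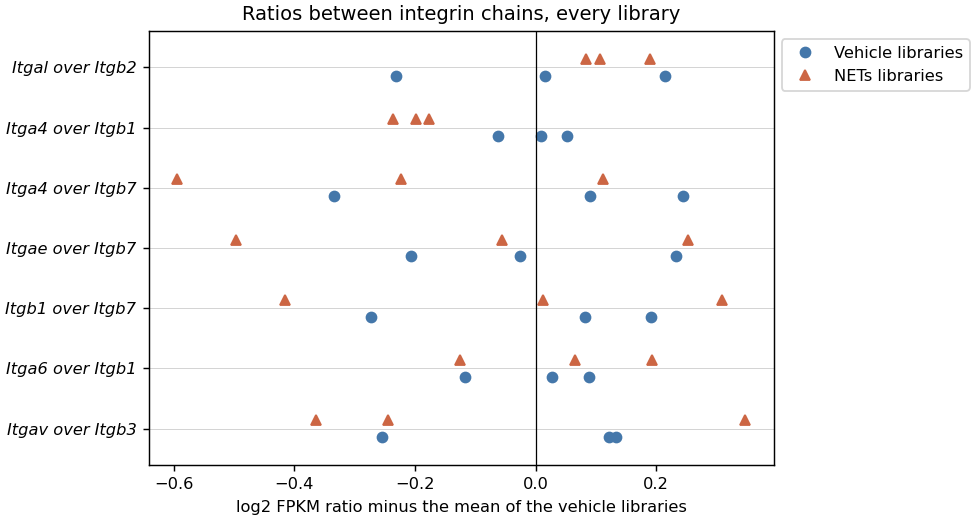
Log2 FPKM ratio of 7 pairs of integrin chains in every library, shown as the distance from the mean of the vehicle libraries (circles for vehicle, triangles for NETs). Itga4 over Itgb1 is the pair whose groups do not overlap, with NETs values of 0.42 to 0.48 against vehicle values of 0.59 to 0.71 before centring.

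The rest of the adhesion machinery was read from 6 lists, and edgeR called 0 genes in each over all genes tested. Because the lists were chosen with earlier results of these data known, their shares only describe them and were not tested. Of the 19 genes for inside-out activation of integrins, 3 lay lower at an unadjusted p under 0.05 and 0 higher, where 6.06% and 6.72% of all genes did, with a list median of −0.01. They were Arap2, a GTPase-activating protein of Arf6 (log2 difference −0.26, SE 0.08), Fyb, the adaptor ADAP that links the T cell receptor to LFA-1 (−0.28, SE 0.09), and Apbb1ip, the Rap1 effector RIAM that brings talin to integrins (−0.25, SE 0.11), with edgeR adjusted p values of 0.229, 0.265 and 0.378. Fyb stood at 635, 670 and 538 CPM in the vehicle libraries and 467, 514 and 526 CPM in the NETs libraries, without overlap.

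Of 20 tested genes of the complex that ties integrins to actin, 2 lay higher at an unadjusted p under 0.05 and 0 lower, with a list median of 0.09. That is 10% of the list, beside 12.8% of all genes tested in either direction. Vasp, which promotes actin filament growth, stood at 241, 252 and 267 with vehicle and 333, 279 and 334 CPM with NETs (log2 difference 0.33, SE 0.09, adjusted p in edgeR = 0.223). Actn4 and Flna, which crosslink actin, had log2 differences of 0.20 and 0.17 (adjusted p = 0.390 and 0.438). In the list of integrin inhibitors and traffic, 3 of 11 lay higher and 2 lower at an unadjusted p under 0.05. That is 45.5% of the list, beside 12.8% of all genes. Filip1l, a filamin-interacting protein, and Krit1, which binds the beta1 tail regulator Itgb1bp1, stood at −0.43 and −0.33, and Arf6, which recycles integrins to the surface, at 0.29, with edgeR adjusted p values of 0.223, 0.223 and 0.289.

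Of 14 tested genes for selectins and the glycans that let PSGL-1 bind them, 3 lay higher at an unadjusted p under 0.05, where 6.72% of all genes did. Among them, Chst2, a sulfotransferase, had a log2 difference of 0.79 and Spn (CD43) of 0.22, with edgeR adjusted p values of 0.336 and 0.355. Among 16 tested ligands and partners, 3 lay higher and 1 lower at an unadjusted p under 0.05. That is 25% of the list, beside 12.8% of all genes. Lgals3 (galectin-3) had 4.61, 3.51 and 3.67 with vehicle and 10.5, 6.20 and 7.99 CPM with NETs, Pvr, a ligand of Cd226, was at −0.38 and Sirpa, the phagocyte receptor of CD47, at 1.06 (edgeR adjusted p = 0.223, 0.273 and 0.288). Lgals3 and Sirpa are also expressed by macrophages, whose summed markers were higher in the NETs libraries with Lyz2 and overlapped without it, and the part of such cells in these values was not tested. Of 12 other tetraspanins, 1 lay lower and 0 higher at an unadjusted p under 0.05, or 8.33% beside 12.8% of all genes. It was Cd53 at −0.32 (SE 0.11, adjusted p in edgeR = 0.261), while Tspan2 was at −0.64 and Tspan13 at 0.14 (adjusted p in edgeR = 0.486 and 0.497).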

How the data were processed

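The authors deposited raw read counts per Ensembl gene in 2 tables that held identical values, and FPKM values per gene and library. The submitters' processing notes name STAR, DESeq2 and the build mm9 without roles. No counting program or strand setting is named there. Coordinates of 42 of the 43 genes equal those of GENCODE M21 on GRCm38, so that build is printed. For 2 genes, Cd226 and Fermt3, the length behind FPKM is not the mean transcript length of that annotation.

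Counts were filtered with filterByExpr (13900 genes kept), scaled by TMM and tested with edgeR 4.0.16 in R 4.3.3 (quasi-likelihood, robust, two-sided, group as the only term), with Benjamini-Hochberg adjustment over all genes tested. The standard error is the absolute log2 fold change divided by the square root of F. CPM uses library totals. DESeq2 1.42.0 and limma 3.58.1 served as alternatives, as did fits without a filter, with other scaling and without each library. Scripts were tested on simulated data.

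All 43 genes are named or counted. Of each pathway list, up to 3 genes with the smallest p are named, whether or not they passed. Of the cell markers, some of those near 0 or moving with the groups are named. Levels per longest coding transcript and chain shares by deposited length were added after seeing the data. The members and lists were chosen with earlier results of these data known. Cd58 of the lists was not matched to the table. A gene of the selectin list is not reported here.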

Additional observations from a re-analysis of the deposited data

How the results depend on the processing

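The count of adhesion genes called was 0 higher under every alternative run, and 0 lower except for 1, Itga7, with no filter on low counts and without vehicle replicate 3. At an unadjusted p under 0.05 the count of higher genes was 2 with no filter, and the count of lower genes was 0 with DESeq2, limma-voom and limma-trend on log2(FPKM + 0.1) or log2(FPKM + 1). Over all genes tested, edgeR with no filter called 192 higher and 130 lower, DESeq2 62 and 68, limma-voom 1 higher, and limma-trend 2 higher at either pseudocount. Leaving out a library gave 0 to 218 genes called higher and 0 to 187 lower over the whole table, 0 to 1 adhesion genes called lower, 0 to 5 higher and 0 to 1 lower at an unadjusted p under 0.05, and a median log2 fold change of the 35 genes of −0.00666 to 0.0604. With the replicate block, edgeR called 0 genes over the whole table and Itga7 stood at −0.72 (edgeR adjusted p = 0.443); same-numbered libraries did not deviate together (correlations −0.0222, −0.0529 and −0.166), so the block says nothing of pairs. The cause of these shifts was not tested.

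Of 35 genes, 19 kept their sign under all alternatives. The sign of Rap1a turned with no filter (0.0048). Over the fits that left out a library, log2 fold changes ranged from −0.34 to 0.17 for Itga10, −0.0485 to 0.0367 for Rap1a, −0.63 to 0.17 for Itgam, −0.0167 to 0.12 for Cd151, −0.00666 to 0.0774 for Itgb2, −0.11 to 0.044 for Rap1b, −0.0797 to 0.38 for Icam5, −0.14 to 0.72 for Itga9, −0.10 to 0.22 for Itgae, −0.11 to 0.26 for Itga3, −0.32 to 0.0217 for Itga2b, −0.16 to 0.12 for Itgb3, −0.0731 to 0.26 for Icam2, −0.47 to 0.35 for Itgb4, −0.30 to 0.0362 for Itga2 and −0.0726 to 0.0332 for Cd47. Among genes that kept their sign, the ranges were 0.0608 to 0.27 for Itga6, −0.21 to −0.068 for Itgav, 0.11 to 0.33 for Cd82, 0.0178 to 0.26 for Cd81, 0.0365 to 0.18 for Itgb1, 0.0143 to 0.32 for Icam1, −0.23 to −0.0428 for Itga5 and 0.18 to 0.52 for Itgb5. The differences of log2 ratios ranged from −0.28 to 0.0949 for Itgae over Itgb7, −0.20 to 0.16 for Itgb1 over Itgb7, −0.0294 to 0.13 for Itga6 over Itgb1 and −0.31 to 0.0513 for Itgav over Itgb3. With the deposited gene length in place of the length in FPKM, a choice made after seeing the data, Itgb7 held 46.0% of the beta chain level and Itgal 54.2% of the alpha chain level with vehicle.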
